A study of Oryzias latipes with 27 samples.

Results

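The miR-17-92 cluster and its paralogue families were followed through medaka gonad development. A mature miRNA was taken as a member where its family was exactly miR-17, miR-18, miR-19, miR-20, miR-25, miR-92, miR-93, miR-106 or miR-363, whatever its letter, copy number or arm. This gave 33 members of the 437 mature miRNAs measured. They comprised 11 rows of miR-19, 5 of miR-20, 4 each of miR-18 and miR-92, 3 of miR-17, 2 each of miR-25, miR-93 and miR-106, and 0 of miR-363.

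Small RNA of medaka (Oryzias latipes) gonads was sequenced at 3 ages, D10, D30 and D120 (the number gives the days after hatching), in 3 kinds of gonad, with 3 biological replicates in each of the 9 groups. MT_Fe_Ov is the ovary of XY fish in which DMY was disrupted with TALEN nucleases, WT_Fe_Ov is the ovary of unedited XX females, and WT_Ma_Te is the testis of unedited XY males. DMY is the Y-linked gene that starts male development in this species. The labels call the MT_Fe_Ov fish DMY knockout males and give their sex as female and their tissue as ovary, and the study describes 1 line inherited stably over many generations. The D10 material was the gonadal primordium together with the tissue around it, whereas D30 and D120 libraries came from gonads.

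The miR-17-92 cluster is a polycistron: 1 primary transcript is cut into several hairpins, each of which gives 2 arms (5p and 3p), and usually 1 arm of a hairpin is loaded into Argonaute as the main product. Its miRNAs pair with target mRNAs through the seed near their 5′ end. In mammals the cluster is known for promoting proliferation and survival, with targets such as Bim and E2f1, and it has the paralogous clusters miR-106b-25 and miR-106a-363. By textbook family membership (no sequence was read here) the seed sorts the main arms into 4 groups, which are miR-17, miR-20, miR-93 and miR-106 (5p arms), miR-18 (5p arms), miR-19 (3p arms) and miR-92 and 25 (3p arms). The other 18 members are taken as the opposite arms. For miR-19c only the 5p arm, placed among these opposite arms, had any reads. Members of a family can share reads, since the treatment of reads that match several near-identical miRNAs is not stated.

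The RefSeq annotation of ASM223467v1, the build to which the reads were mapped, held 13 hairpins of these families. Chromosome 21 carried 6 hairpins within 1021 bases (23593669 to 23594689) in the order mir92a-1, mir19b-1, mir20a-2, mir19a, mir18-2 and mir17, in no other annotated gene. Hairpins mir92a-1 (23593669 to 23593772) and mir19b-1 (23593777 to 23593878) are direct neighbours there. Chromosome 3 carried mir18-1, mir20a-1 and mir92a-2 within 735 bases (16664893 to 16665627). Hairpins mir106a (chromosome 10, 6634262 to 6634368) and mir19d (6634560 to 6634652) overlap mcm7, a subunit of the replicative helicase whose mammalian gene hosts the miR-106b-25 cluster. The remaining hairpins, mir19b-2 (chromosome 10, 26601395 to 26601497) and mir92b (chromosome 16, 31661187 to 31661288), stand alone among the 13. The RefSeq letters do not map one to one onto the names in the count table, so a mature miRNA below is not assigned to a single hairpin.

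Summed miRNA counts were 2518868 to 8818687 per library at D10, 54535 to 810120 at D30 and 1054214 to 3517578 at D120. The shallowest library was D30 MT_Fe_Ov replicate 2, where 3 counts correspond to 55.0 RPM (the read count scaled to a library total of 1000000 miRNA reads). Depth here means the miRNA total of a library, not all reads sequenced. By the study's mapping summary, a smaller percentage of reads mapped to miRNAs in every D30 library than in any D10 or D120 library. Of the 437 miRNAs, 204 to 246 had a count in the D30 ovary libraries of either genotype and 334 to 351 in the D30 testis libraries. Of the 33 members, 16 to 21 were at 0 in a D30 ovary library, 4 or 5 in a D30 testis library and 1 to 3 in the other libraries. Member miR-19c-3p was at 0 in all 27 libraries. The gonad miRNA miR-202 (2 rows) summed to 112 to 473 RPM at D10 and to 5153 to 12639 RPM in the D30 ovaries, against 127278 to 140263 RPM in the D30 testis. At D120 its sum was 634 to 1105 RPM in MT_Fe_Ov and 241577 to 270705 RPM in WT_Fe_Ov, against 1157 to 1471 RPM in WT_Ma_Te, and 1 of its 2 rows was at 0 in MT_Fe_Ov and in WT_Ma_Te.

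By group mean, the members held a larger share of all miRNA counts at D30 than at D10 or D120. In MT_Fe_Ov they held 3.48% ± 0.397 of counts at D10, 11.4% ± 3.40 at D30 and 3.47% ± 0.208 at D120 (SD, n = 3 in each group). In WT_Fe_Ov the shares were 3.33% ± 0.427, 12.2% ± 3.55 and 3.05% ± 0.227 over the same stages. In WT_Ma_Te they were 4.43% ± 0.246, 7.49% ± 1.31 and 6.70% ± 0.720. The testis libraries overlapped between D30 (6.10% to 8.71%) and D120 (6.25% to 7.53%). Nearly all of the D30 share belonged to 1 seed group. The miR-92/25 group (miR-92a-3p, miR-92b-3p and miR-25a-3p) held 11.3% ± 3.37 in D30 MT_Fe_Ov and 12.1% ± 3.54 in D30 WT_Fe_Ov, against 6.43% ± 1.10 in D30 WT_Ma_Te. The other 30 members together held 0.154% ± 0.0393 and 0.123% ± 0.0286 in these ovaries, against 1.06% ± 0.238 in the testis. Shares are of miRNA reads only, so they are lowered by any abundant miRNA. At D120 the most abundant miRNAs were miR-21-5p in MT_Fe_Ov and miR-202-5p in WT_Fe_Ov, and with the most abundant other miRNA left out of the total the members held 4.49% in MT_Fe_Ov and 4.13% in WT_Fe_Ov.

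**Figure D1:**
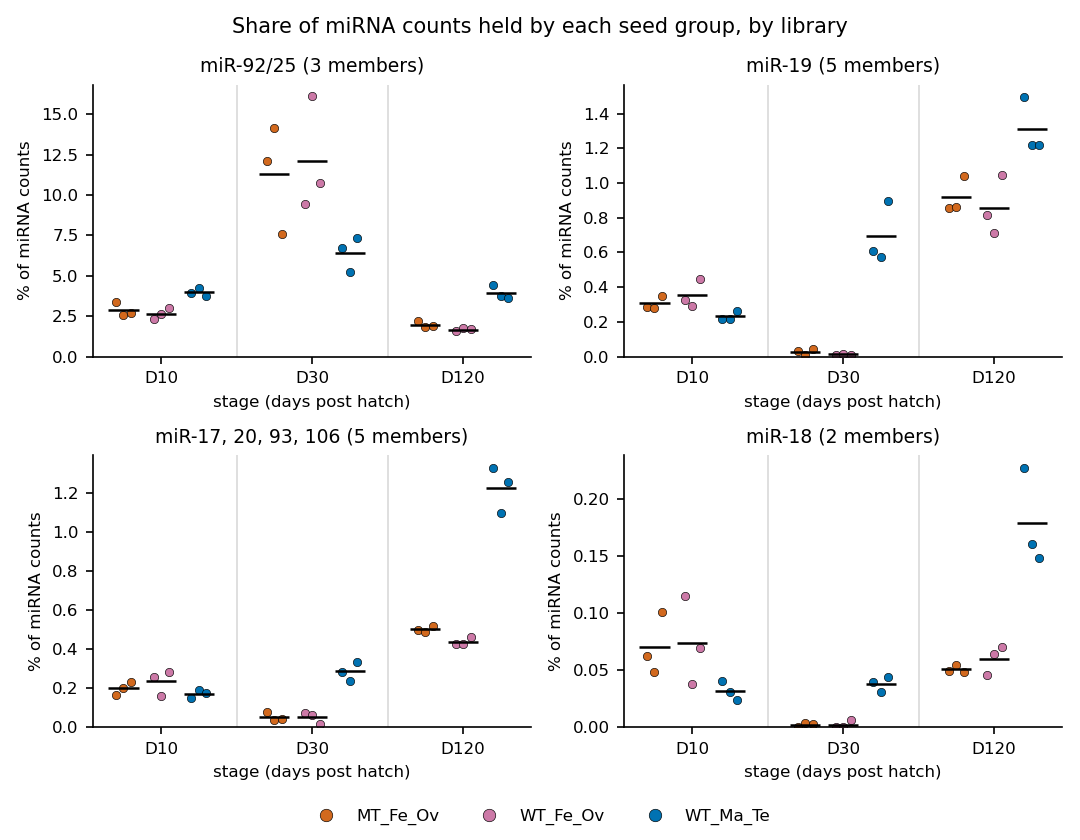
Share of miRNA counts (percent, linear axes from 0 that differ between panels) held by each seed group in every library, with days post hatch on the horizontal axis, a point for each library and a short line for the mean of 3. The miR-92/25 group peaked at D30, at 11.3% in MT_Fe_Ov and 12.1% in WT_Fe_Ov against 6.43% in WT_Ma_Te, where the miR-19, miR-17 and miR-18 groups were close to 0 in both ovaries.

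Among the members of the miR-92/25 group, miR-92a-3p was the most abundant member in every group. At D30 it ranked 3rd among all miRNAs in MT_Fe_Ov and 2nd in WT_Fe_Ov, against 6th in WT_Ma_Te. It was at 31117, 22958 and 24884 RPM in D10 MT_Fe_Ov and at 20839, 23499 and 27856 RPM in D10 WT_Fe_Ov, against 36419, 40155 and 35307 RPM in D10 WT_Ma_Te. Every D10 testis library lay above every D10 ovary library. At D30 the order was the other way round, with 109974, 129531 and 67988 RPM in MT_Fe_Ov and 88371, 155132 and 101867 RPM in WT_Fe_Ov, against 61060, 46360 and 67226 RPM in WT_Ma_Te. The ovary libraries spread widely, and MT_Fe_Ov replicate 3 lay just above the highest testis library. At D120 the levels were 19502, 15519 and 15200 RPM in MT_Fe_Ov and 12995, 14839 and 14132 RPM in WT_Fe_Ov, against 38612, 32788 and 31470 RPM in WT_Ma_Te. The testis was again above both ovaries in every library. At D30 the log2 fold change was 1.14 for MT_Fe_Ov over WT_Ma_Te (SE 0.28, adjusted p 0.0137, edgeR) and 1.06 for WT_Fe_Ov over the same WT_Ma_Te libraries (SE 0.28, adjusted p 0.0105, edgeR), and it was 0.08 for MT_Fe_Ov over WT_Fe_Ov (adjusted p 0.87, edgeR). The first call was lost without WT_Ma_Te replicate 1 or 2 (adjusted p 0.0545 and 0.0522, edgeR), the next was 0.90 without WT_Fe_Ov replicate 2, and on library totals the values were 0.82 and 0.98. At D10 and D120 no genotype comparison of miR-92a-3p passed both thresholds with TMM scaling, with log2 fold changes of -0.67 and -0.52 for MT_Fe_Ov and of -0.78 and -0.72 for WT_Fe_Ov over WT_Ma_Te. On library totals it was called as lower in both D120 ovaries.

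The change with stage in miR-92a-3p was larger than the spread between replicates in both ovaries. Relative to D10 it was higher at D30 by 2.08 on the log2 scale in MT_Fe_Ov (SE 0.25, adjusted p 2.08e-07, edgeR) and by 2.32 in WT_Fe_Ov (SE 0.25, adjusted p 2.62e-08, edgeR). Relative to D30 it was lower at D120, with a log2 fold change of -2.57 in MT_Fe_Ov (adjusted p 1.38e-08, edgeR) and of -2.93 in WT_Fe_Ov (adjusted p 1.08e-09, edgeR). In WT_Ma_Te the D30 over D10 value was 0.43 (SE 0.24, adjusted p 0.12, edgeR), and the D120 over D30 value of -0.80 (adjusted p 0.00846, edgeR) was under the fold threshold. A miRNA was called a DEM (differentially expressed miRNA) where its adjusted p did not exceed 0.05 and its level differed by 1 or more on the log2 scale.

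In miR-25a-3p, which shares its seed with miR-92a, D30 separated the XY ovary from both wild-type gonads. At D30 it was at 8716, 9040 and 6099 RPM in MT_Fe_Ov, against 4618, 4629 and 4179 RPM in WT_Fe_Ov and 4176, 4494 and 4735 RPM in WT_Ma_Te. All MT_Fe_Ov libraries were above all others, and the wild-type ovary and testis overlapped. Fitted log2 fold changes of MT_Fe_Ov were 1.10 over WT_Fe_Ov (SE 0.20, adjusted p 0.00378, edgeR) and 1.18 over WT_Ma_Te (SE 0.20, adjusted p 0.0028, edgeR). On library totals alone, without TMM scaling, it was 0.83 in both comparisons, below the fold threshold. Without MT_Fe_Ov replicate 2, the shallowest library, the value over WT_Fe_Ov was 0.99, and without WT_Fe_Ov replicate 3 it fell just short of 1. At D10 all 9 libraries lay between 1023 and 1341 RPM. Every group was higher at D30 than at D10, by 3.05 in MT_Fe_Ov, 2.06 in WT_Fe_Ov and 1.67 in WT_Ma_Te (adjusted p 2.32e-09, 2.58e-07 and 9.25e-06, edgeR).

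The least abundant of the 3 at D30 and D120, miR-92b-3p, had its highest group mean in D30 MT_Fe_Ov and its lowest in the D120 ovaries. It was at 2424, 3099 and 1743 RPM in D30 MT_Fe_Ov, against 1589, 1444 and 1288 RPM in D30 WT_Fe_Ov and 1726, 1306 and 1766 RPM in D30 WT_Ma_Te. The 2 ovary groups did not overlap, whereas the XY ovary and the testis did. The log2 fold change of MT_Fe_Ov over WT_Fe_Ov was 1.01 (SE 0.24, adjusted p 0.0114, edgeR), so close to the threshold that the call was lost without any 1 of 4 libraries (MT_Fe_Ov replicates 1 and 2 at 0.99 and 0.80, WT_Fe_Ov replicates 2 and 3 at 0.97 and 0.88) and with RLE scaling (0.94). At D120 it was at 216, 229 and 163 RPM in MT_Fe_Ov and 145.4, 244 and 213 RPM in WT_Fe_Ov, against 831, 679 and 737 RPM in WT_Ma_Te. Both ovary groups lay far below the testis, with log2 fold changes of -1.37 for MT_Fe_Ov (SE 0.23, adjusted p 0.00137, edgeR) and -1.33 for WT_Fe_Ov (SE 0.23, adjusted p 0.00134, edgeR) against the same testis libraries.

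The miR-19 group was almost lost from both ovaries at D30. Its 5 members summed to 282 ± 187 RPM in D30 MT_Fe_Ov and 121 ± 41.7 RPM in D30 WT_Fe_Ov, against 6941 ± 1783 RPM in D30 WT_Ma_Te (SD, n = 3 each). At D10 the sums were 3063 ± 387 RPM in MT_Fe_Ov and 3545 ± 812 RPM in WT_Fe_Ov, against 2319 ± 284 RPM in WT_Ma_Te. At D120 they were 9183 ± 1069 RPM in MT_Fe_Ov and 8577 ± 1693 RPM in WT_Fe_Ov, against 13106 ± 1585 RPM in WT_Ma_Te. In bulk samples, fewer cells that carry a miRNA and less of it per cell cannot be told apart.

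Most of the miR-19 reads were miR-19b-3p. At D30 it had 289, 73.3 and 396 RPM in MT_Fe_Ov and 55.5, 164 and 3.24 RPM in WT_Fe_Ov, against 5080, 5018 and 7957 RPM in WT_Ma_Te. These rest on 31, 4 and 139 counts in MT_Fe_Ov and 45, 86 and 2 counts in WT_Fe_Ov, against 2710, 2459 and 2415 counts in WT_Ma_Te. The lowest testis library was more than 10 times the highest ovary library, while the ovary replicates differed widely among themselves. The log2 fold change was -4.02 for MT_Fe_Ov over WT_Ma_Te (SE 1.03, adjusted p 0.0166, edgeR) and -6.33 for WT_Fe_Ov over the same WT_Ma_Te libraries (SE 1.14, adjusted p 0.00158, edgeR). For MT_Fe_Ov the adjusted p was 0.0541 without MT_Fe_Ov replicate 1 and 0.0554 without WT_Ma_Te replicate 3 (edgeR). At D10 it had 2221, 2148 and 2741 RPM in MT_Fe_Ov and 2528, 2240 and 3388 RPM in WT_Fe_Ov, against 1362, 1499 and 1946 RPM in WT_Ma_Te. At D120 it had 6177, 6079 and 8030 RPM in MT_Fe_Ov and 6426, 5017 and 7728 RPM in WT_Fe_Ov, against 11209, 9397 and 8908 RPM in WT_Ma_Te. The D120 testis libraries were the highest of all 27 on the RPM scale, but with TMM scaling the log2 fold changes were -0.02 for MT_Fe_Ov and -0.05 for WT_Fe_Ov (adjusted p 0.955 and 0.874, edgeR).

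The less abundant miR-19 members were also low in the D30 ovaries, with a gap to the testis. Of these, miR-19a-2-3p and miR-19a-1-3p passed the count filter only through the testis, where they were high. Their values are therefore no added support for the gap. For miR-19a-2-3p the D30 levels were 0 in all 3 libraries of MT_Fe_Ov and of WT_Fe_Ov, against 283, 132.6 and 217 RPM in WT_Ma_Te. With 3 counts per library as the limit of detection, it was at least 6.92-fold lower in MT_Fe_Ov and at least 44.3-fold lower in WT_Fe_Ov than in WT_Ma_Te. It passed the count filter only through the testis, and without any 1 testis library it was not tested. The weaker bound in MT_Fe_Ov follows from the small miRNA totals of its libraries. The levels of miR-19da-3p were 46.6, 0 and 37.0 RPM in D30 MT_Fe_Ov and 61.7, 0 and 77.7 RPM in D30 WT_Fe_Ov, against 677, 551 and 751 RPM in D30 WT_Ma_Te. Its log2 fold changes were -3.91 for MT_Fe_Ov (SE 1.29, adjusted p 0.0449, edgeR) and -3.68 for WT_Fe_Ov (SE 1.22, adjusted p 0.0303, edgeR). The call for MT_Fe_Ov was lost without any 1 of its 6 libraries, with an adjusted p of 0.0656 to 0.124 (edgeR), and that for WT_Fe_Ov without WT_Fe_Ov replicate 1 or without any 1 testis library. The least abundant, miR-19a-1-3p, had 0, 0 and 2.85 RPM in D30 MT_Fe_Ov and 0 in all 3 D30 WT_Fe_Ov libraries, against 69.4, 24.5 and 62.6 RPM in D30 WT_Ma_Te, and was at least 11.0-fold lower in WT_Fe_Ov. Its log2 fold change in MT_Fe_Ov, on 1 count in all, was -4.23 (SE 1.24, adjusted p 0.0367, edgeR). That call was lost without any 1 MT_Fe_Ov library, with DESeq2 and when every miRNA with at least 1 count entered the test, and the member was not tested without any 1 testis library. The 9 miRNAs of the stroma and smooth muscle list summed to 28819 to 35462 RPM in D30 MT_Fe_Ov (2 of the 9 at 0) and 55279 to 68018 RPM in D30 WT_Fe_Ov (3 at 0), against 101430 to 119228 RPM in D30 WT_Ma_Te (0 at 0), and their part in this gap was not tested. At D120 none of these 4 was called between any groups, and their log2 fold changes against WT_Ma_Te lay between -0.10 and 0.16 in MT_Fe_Ov and between -0.12 and 0.06 in WT_Fe_Ov.

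**Figure D2:**
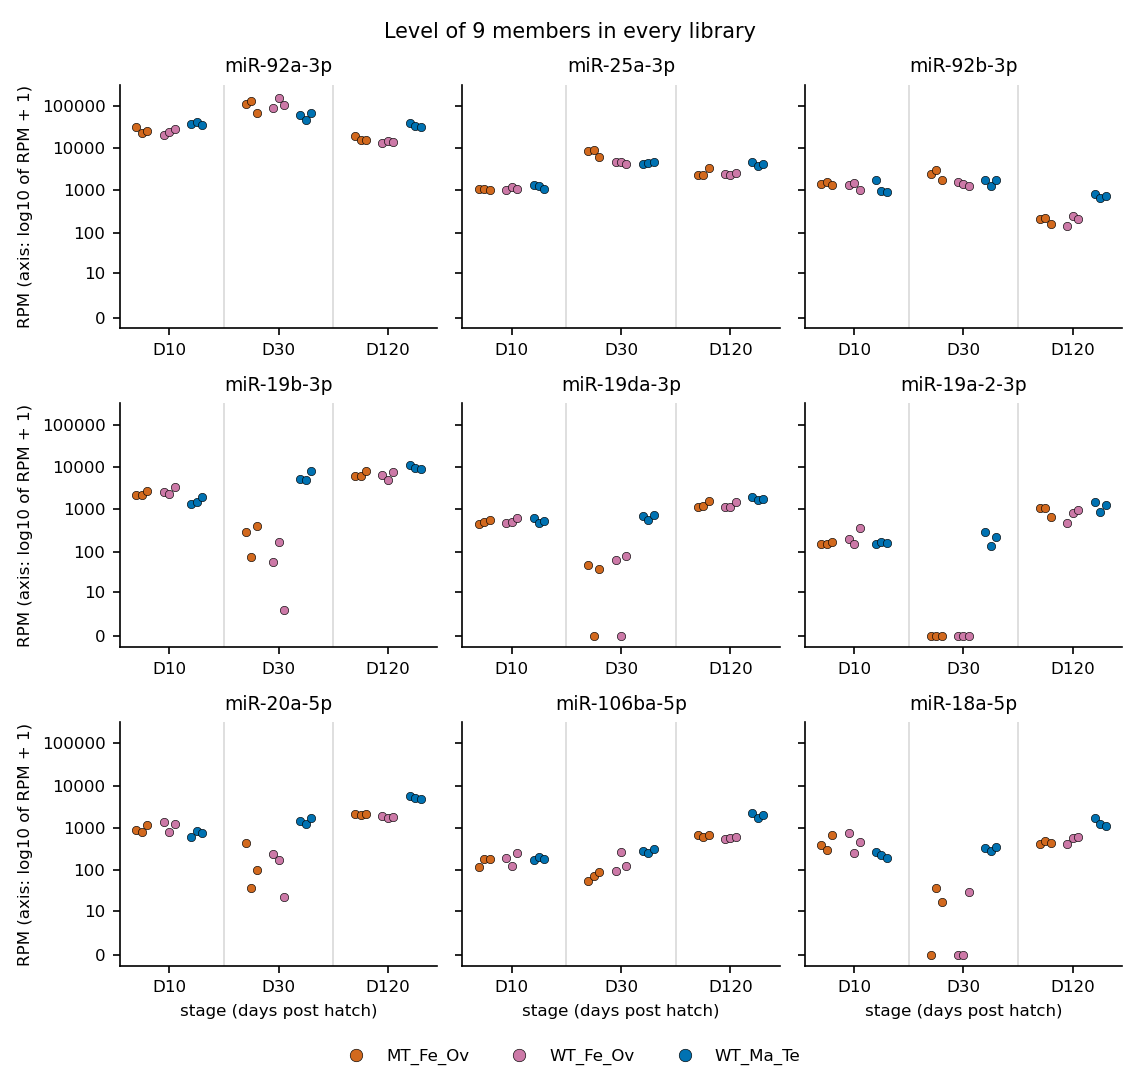
Level of 9 members in each of the 27 libraries, in RPM on an axis of log10(RPM + 1), with days post hatch on the horizontal axis and a point for each library. In the top row the miR-92/25 members were at 1288 RPM or more in every D30 library, whereas miR-19a-2-3p was at 0 in all 6 D30 ovary libraries and at 132.6 to 283 RPM in the D30 testis. At D30 miR-19a-2-3p passed the count filter only through the testis, and a 0 allows up to 55.0 RPM in the shallowest D30 library (MT_Fe_Ov replicate 2).

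The levels of miR-92a-3p and miR-19b-3p given above can also be put as a ratio within each library, which does not depend on scaling to the library total. It rests on the same counts and is no separate support. Reads of miR-92a-3p per read of miR-19b-3p were 381, 1766 and 172 in D30 MT_Fe_Ov and 1591, 946 and 31471 in D30 WT_Fe_Ov, against 12.0, 9.24 and 8.45 in D30 WT_Ma_Te. The D30 ovary ratios divide by few counts, 31, 4 and 139 in MT_Fe_Ov and 45, 86 and 2 in WT_Fe_Ov, and the largest divides by only 2. At D10 the ratios were 14.0, 10.7 and 9.08 in MT_Fe_Ov and 8.24, 10.5 and 8.22 in WT_Fe_Ov, against 26.7, 26.8 and 18.1 in WT_Ma_Te. At D120 they were 3.16, 2.55 and 1.89 in MT_Fe_Ov and 2.02, 2.96 and 1.83 in WT_Fe_Ov, against 3.44, 3.49 and 3.53 in WT_Ma_Te. So the D30 ovaries stood apart from every other group, and at D10 and D120 the testis had the higher ratios in all 3 libraries. Both miRNAs have a hairpin in the chromosome 21 cluster, and RefSeq holds another copy of each elsewhere.

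**Figure D3:**
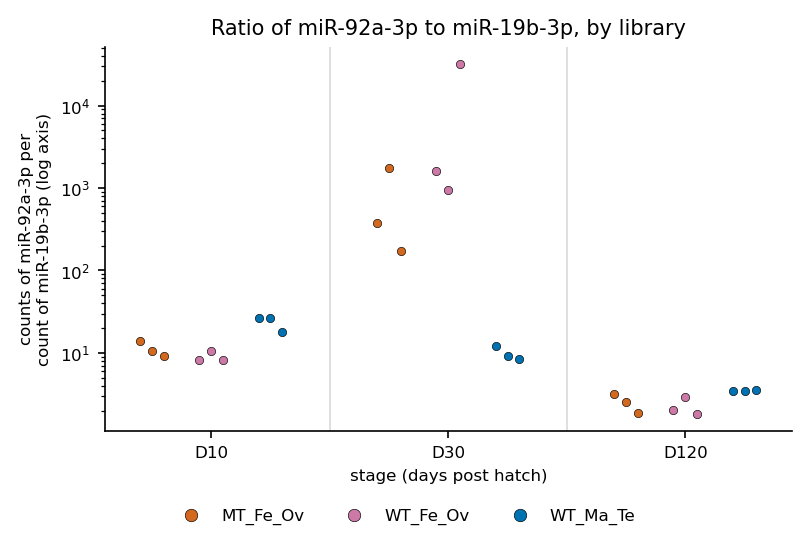
Counts of miR-92a-3p divided by counts of miR-19b-3p in each library (log axis), with days post hatch on the horizontal axis and a point for each library. The 6 D30 ovary libraries lay between 172 and 31471, the D30 testis between 8.45 and 12.0, and all D120 libraries between 1.83 and 3.53.

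The miR-17 seed group (miR-17a, 20a, 20b, 93a and miR-106ba, 5p arms), whose mammalian members restrain E2f1, was low in the D30 ovaries and high in the D120 testis. Its sum was 523 ± 229 RPM in D30 MT_Fe_Ov and 495 ± 295 RPM in D30 WT_Fe_Ov, against 2845 ± 472 RPM in D30 WT_Ma_Te (SD, n = 3 each). At D120 it was 5014 ± 153 RPM in MT_Fe_Ov and 4376 ± 219 RPM in WT_Fe_Ov, against 12248 ± 1186 RPM in WT_Ma_Te. The D120 values were tight, and both ovaries were far below the testis on this scale. At D10 the sums were 1981 ± 338 RPM in MT_Fe_Ov and 2333 ± 641 RPM in WT_Fe_Ov, against 1714 ± 201.8 RPM in WT_Ma_Te, differing by about the spread between replicates.

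The most abundant of this group, miR-20a-5p, had 438, 36.7 and 99.7 RPM in D30 MT_Fe_Ov and 248, 177 and 22.7 RPM in D30 WT_Fe_Ov, against 1494, 1273 and 1687 RPM in D30 WT_Ma_Te. No ovary library reached the testis range, and both ovaries had 1 library under 40 RPM. The log2 fold change was -3.32 in WT_Fe_Ov (SE 0.92, adjusted p 0.0137, edgeR), and the value of -2.54 in MT_Fe_Ov (SE 0.91, adjusted p 0.0582, edgeR) did not pass. The call for WT_Fe_Ov was lost without WT_Ma_Te replicate 3, and the value in MT_Fe_Ov was called with DESeq2, on library totals and without MT_Fe_Ov replicate 1. At D120 it had 2100, 2008 and 2168 RPM in MT_Fe_Ov and 1961, 1761 and 1853 RPM in WT_Fe_Ov, against 5680, 5220 and 4916 RPM in WT_Ma_Te. The log2 fold changes of -0.82 and -0.92 for MT_Fe_Ov and WT_Fe_Ov against WT_Ma_Te (adjusted p 0.0057 and 0.00278, edgeR) passed the p threshold but not the fold threshold, and with library totals as the scaling both were called.

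With TMM scaling and all libraries, the 5p arm miR-106ba-5p was called by edgeR in no D30 genotype comparison. For MT_Fe_Ov over WT_Ma_Te it was called as lower with DESeq2, on library totals and without MT_Fe_Ov replicate 3. It had 55.9, 73.3 and 91.1 RPM in D30 MT_Fe_Ov and 98.8, 273 and 125 RPM in D30 WT_Fe_Ov, against 294, 255 and 323 RPM in D30 WT_Ma_Te. The wild-type ovary and testis overlapped through 1 library. At D120 it had 687, 620 and 680 RPM in MT_Fe_Ov and 541, 595 and 624 RPM in WT_Fe_Ov, against 2272, 1689 and 2038 RPM in WT_Ma_Te, and was lower in both ovaries, with log2 fold changes of -1.07 in MT_Fe_Ov (SE 0.18, adjusted p 0.00142, edgeR) and -1.19 in WT_Fe_Ov (SE 0.18, adjusted p 0.000697, edgeR). The following 3 members were chosen after their values were seen. The founder of the family, miR-17a-5p, had 121, 91.7 and 174 RPM in D30 MT_Fe_Ov and 256, 111 and 1.62 RPM in D30 WT_Fe_Ov, against 605, 467 and 755 RPM in D30 WT_Ma_Te, and was called by edgeR with TMM scaling in no genotype comparison. On library totals it was called as lower in D120 WT_Fe_Ov than in D120 WT_Ma_Te. At D30 miR-93a-5p was lower in WT_Fe_Ov than in WT_Ma_Te, with a log2 fold change of -2.98 (adjusted p 0.00831, edgeR). It was called as lower in D120 WT_Fe_Ov as well, with a log2 fold change of -1.05, but not in D120 MT_Fe_Ov. For D30 MT_Fe_Ov over WT_Ma_Te, edgeR with TMM scaling and all libraries called 0 members of this seed group. At D120 miR-20b-5p was lower in both ovaries, with log2 fold changes of -2.01 in MT_Fe_Ov and -2.32 in WT_Fe_Ov (adjusted p 0.00237 and 0.000864, edgeR). It had 12.6, 10.4 and 14.8 RPM in D120 MT_Fe_Ov and 5.45, 13.6 and 9.75 RPM in D120 WT_Fe_Ov, against 93.6, 47.4 and 78.5 RPM in D120 WT_Ma_Te.

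The miR-18 group resembles miR-17 but for 1 base of the seed. Its most abundant member, miR-18a-5p, had 0, 36.7 and 17.1 RPM in D30 MT_Fe_Ov and 0, 0 and 30.8 RPM in D30 WT_Fe_Ov, against 347, 290 and 359 RPM in D30 WT_Ma_Te. These are 0, 2 and 6 counts in MT_Fe_Ov and 0, 0 and 19 counts in WT_Fe_Ov, so the ovary levels are near the limit of detection. Of the D30 ovary libraries only WT_Fe_Ov replicate 3 reached 10 counts, so miR-18a-5p passed the count filter through the testis, where it was high. Its test is therefore no added support for a gap to the testis. The log2 fold change was -4.76 in WT_Fe_Ov (SE 1.55, adjusted p 0.029, edgeR) and -3.94 in MT_Fe_Ov (SE 1.61, adjusted p 0.087, edgeR), of which only the value for WT_Fe_Ov was called, and that call was lost without WT_Fe_Ov replicate 2 or without any 1 testis library. The library that held 19 reads of miR-18a-5p, WT_Fe_Ov replicate 3, was the one with 1 read of miR-17a-5p and 2 of miR-19b-3p. At D120 miR-18a-5p had 432, 497 and 439 RPM in MT_Fe_Ov and 416, 593 and 632 RPM in WT_Fe_Ov, against 1758, 1253 and 1134 RPM in WT_Ma_Te, with log2 fold changes of -1.08 in MT_Fe_Ov (adjusted p 0.00393, edgeR) and -0.77 in WT_Fe_Ov (adjusted p 0.0171, edgeR). Only the first was past the fold threshold, and it was -0.95 without WT_Ma_Te replicate 1.

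At D120 the widest gap between ovary and testis among the members belonged to miR-18c-5p. It had 62.5, 48.0 and 45.8 RPM in D120 MT_Fe_Ov and 38.7, 46.1 and 71.2 RPM in D120 WT_Fe_Ov, against 514, 350 and 353 RPM in D120 WT_Ma_Te. The ovaries overlapped each other and lay far under the testis. Against WT_Ma_Te the log2 fold change was -2.44 in MT_Fe_Ov (SE 0.28, adjusted p 0.000121, edgeR) and -2.41 in WT_Fe_Ov (SE 0.28, adjusted p 0.000106, edgeR). At D10 the direction was the other way, with 229, 177 and 314 RPM in MT_Fe_Ov and 366, 118 and 213.8 RPM in WT_Fe_Ov, against 123, 77.0 and 40.0 RPM in WT_Ma_Te, and log2 fold changes of 1.39 in both (adjusted p 0.219 and 0.151, edgeR) that did not pass, although DESeq2 called it in WT_Fe_Ov over WT_Ma_Te.

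Of the opposite arms, miR-92a-1-5p stood out at D30. It had 429, 1027 and 165 RPM in D30 MT_Fe_Ov and 493, 582 and 461 RPM in D30 WT_Fe_Ov, against 189, 167 and 283 RPM in D30 WT_Ma_Te. The wild-type ovary lay above the testis in all libraries, and the XY ovary spanned it. The call for MT_Fe_Ov over WT_Ma_Te (log2 fold change 1.56, SE 0.53, adjusted p 0.0487, edgeR) was lost without any library except MT_Fe_Ov replicate 3 and was 0.88 without the shallowest, MT_Fe_Ov replicate 2. Relative to D10 it was higher at D30 by 3.81 in MT_Fe_Ov, 4.02 in WT_Fe_Ov and 1.55 in WT_Ma_Te (adjusted p 4.53e-08, 1.18e-08 and 0.00118, edgeR). As a share of the reads of both miR-92a arms, the 5p arms were 0.493% ± 0.267 in D30 MT_Fe_Ov and 0.460% ± 0.0907 in D30 WT_Fe_Ov, against 0.394% ± 0.0531 in D30 WT_Ma_Te (SD, n = 3 each), so the 3p arm was the main product throughout. Another opposite arm, miR-25a-5p, was at 0 in D30 MT_Fe_Ov replicate 2, where the other replicates had 252 and 11.4 RPM, and at 0, 0 and 50.2 RPM in D30 WT_Fe_Ov, against 26.2, 32.7 and 29.7 RPM in D30 WT_Ma_Te. Its 0 allows up to 55.0 RPM at that depth. The 18 opposite arms together summed to 216 to 717 RPM as group means.

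The filter of 10 counts in 3 libraries of a fit kept 19 members at D30. A member such as miR-19a-2-3p passed it only through the testis, where it was high, so these counts describe the members that passed and are not support for a direction. For D30 MT_Fe_Ov over WT_Ma_Te, 3 members were higher and 4 were lower, against 31.6% of all 250 miRNAs tested called in either direction (13.6% higher and 18% lower). The higher ones were miR-92a-3p, miR-25a-3p and miR-92a-1-5p and the lower ones were the 4 detected miR-19 members. The median log2 fold change was -1.75 over these 19 (-1.54 with groups at 0 set to their bound), against -0.29 over all miRNAs tested, with no bounds set. Leaving out 1 library gave 4 calls without MT_Fe_Ov replicate 1, 4 without MT_Fe_Ov replicate 2, 2 without WT_Ma_Te replicate 1, 2 without WT_Ma_Te replicate 2 and 3 without WT_Ma_Te replicate 3.

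For D30 WT_Fe_Ov over WT_Ma_Te, 1 member was higher (miR-92a-3p, log2 fold change 1.06, adjusted p 0.0105, edgeR) and 8 were lower, against 46.8% of all miRNAs called (16.4% higher and 30.4% lower). The median was -2.34 over the 19 members and -0.65 over all. Without WT_Ma_Te replicates 1, 2 or 3 there were 4, 4 and 3 calls. For D30 MT_Fe_Ov over WT_Fe_Ov, 2 members (miR-25a-3p and miR-92b-3p) were higher and 0 lower, against 28.4% of all miRNAs (18.8% higher and 9.6% lower), and the count was 0 without MT_Fe_Ov replicate 2. The share of members called was therefore near that of all miRNAs in the comparisons with testis and lower between the ovaries. The comparisons with testis share their testis libraries. Levels of 14, 13 and 4 of the 19 members did not overlap between the libraries of MT_Fe_Ov and WT_Ma_Te, of WT_Fe_Ov and WT_Ma_Te, and of MT_Fe_Ov and WT_Fe_Ov, against 56.4%, 67.6% and 35.2% of all miRNAs. The scaling moved the higher calls. On library totals 0 members were higher in any of these 3 comparisons, 6 were lower in MT_Fe_Ov and 7 in WT_Fe_Ov than in WT_Ma_Te, and 0 were lower in MT_Fe_Ov than in WT_Fe_Ov. That scaling moved the median of all miRNAs to -0.60 for MT_Fe_Ov over WT_Ma_Te and to -0.01 (0.17 with TMM) for MT_Fe_Ov over WT_Fe_Ov, and the calls over all miRNAs for MT_Fe_Ov over WT_Ma_Te to 24 higher and 61 lower, where TMM gave 34 and 45.

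**Figure D4:**
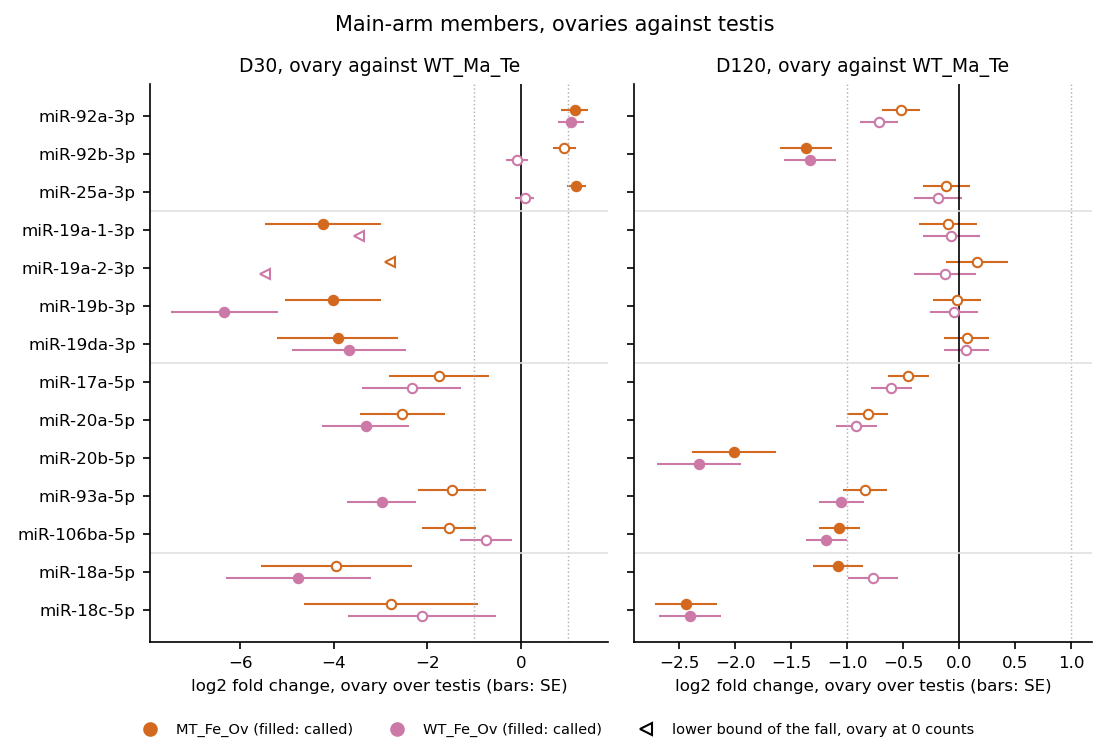
Log2 fold change of the main-arm members in MT_Fe_Ov and WT_Fe_Ov over the same WT_Ma_Te libraries at D30 and at D120 (points with SE bars, filled where called, and open triangles for the bound where all ovary libraries were at 0). At D30 miR-92a-3p lay above 1 in both ovaries and the miR-19 members below -2, whereas at D120 the miR-19 members lay between -0.12 and 0.16 and miR-18c-5p at -2.44 and -2.41.

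At D120 every called member was lower in the ovary. Of 28 members tested, 5 were lower and 0 higher in MT_Fe_Ov than in WT_Ma_Te, against 36% of all 344 miRNAs called (18.9% higher and 17.2% lower), and 6 were lower and 0 higher in WT_Fe_Ov than in WT_Ma_Te, against 38.1% (21.2% higher and 16.9% lower). Members called in both were miR-18c-5p, miR-20b-5p, miR-106ba-5p and miR-92b-3p. The members' medians were -0.43 and -0.50, against -0.01 and 0.04 over all miRNAs. On the RPM scale 22 and 21 of the 28 did not overlap between ovary and testis, against 58.1% and 60.5% of all miRNAs. With library totals as the scaling the median of all miRNAs moved to -0.52 for MT_Fe_Ov and -0.54 for WT_Fe_Ov, and 11 and 14 members were lower. The calls over all miRNAs were then 34 higher and 97 lower for MT_Fe_Ov and 35 higher and 102 lower for WT_Fe_Ov, where TMM gave 65 and 59 and gave 73 and 58. Between the D120 ovaries, MT_Fe_Ov over WT_Fe_Ov, 0 of 28 members were called by edgeR, 0 had an unadjusted p under 0.05, and DESeq2 called 0, against 0.581% of all miRNAs called, and 2 did not overlap, against 7.56%. Their log2 fold changes lay between -0.44 and 0.38.

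At D10 no member was called in any comparison by edgeR, as was so for all miRNAs (0% of 388). Of 29 members tested, 4 had an unadjusted p under 0.05 for MT_Fe_Ov over WT_Ma_Te, 2 for MT_Fe_Ov over WT_Fe_Ov and 8 for WT_Fe_Ov over WT_Ma_Te. DESeq2 called 0, 0 and 3 members in these comparisons. Over all 388 miRNAs, 72, 11 and 76 had an unadjusted p under 0.05 (edgeR), and DESeq2 called 9, 0 and 23. The D10 libraries hold other tissue, since the 10 muscle miRNAs summed to 89201 to 156474 RPM there, and the 5 skin miRNAs to 71420 to 133797 RPM.

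Between stages, the miR-17, 18 and 19 groups were lower and the miR-92/25 group higher in the D30 ovaries. Of 30 members tested, 3 were higher and 11 lower in D30 MT_Fe_Ov than at D10, against 55.4% of all 399 miRNAs called (15.5% higher and 39.8% lower), and 3 were higher and 20 lower in D30 WT_Fe_Ov than at D10, against 74.7% (17.3% higher and 57.4% lower). In both, the 3 higher members were miR-92a-3p, miR-25a-3p and miR-92a-1-5p. The other member of the miR-92/25 group, miR-92b-3p, was called in neither, with log2 fold changes of 0.86 in MT_Fe_Ov and 0.21 in WT_Fe_Ov. The members' medians were -2.42 in MT_Fe_Ov (-1.97 with groups at 0 set to their bound) and -4.14 in WT_Fe_Ov (-1.93 with bounds). The medians of all miRNAs were -2.07 and -3.34 with no bounds set, so only the members' medians without bounds compare with them. The miR-17, 18 and 19 groups were thus lower at D30 together with a large share of the table. Over the same interval WT_Ma_Te had 6 members higher and 1 lower, against 60.7% of all miRNAs (24.8% higher and 35.8% lower), including a higher miR-19b-3p (log2 fold change 1.70, SE 0.64, adjusted p 0.0241, edgeR). That count was 4 without D30 WT_Ma_Te replicate 3, and miR-19b-3p was no longer called without it, without D10 WT_Ma_Te replicate 1 or without D10 WT_Ma_Te replicate 2. The muscle list summed to 757 to 2946 RPM in the D30 ovaries and 7381 to 8915 RPM in the D30 testis, with 5 of its 10 miRNAs at 0 in D30 MT_Fe_Ov and 5 in D30 WT_Fe_Ov, against 3 in D30 WT_Ma_Te, so stage and tissue composition cannot be told apart between D10 and D30.

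From D30 to D120 the pattern turned round. In D120 MT_Fe_Ov 15 members were higher and 4 lower than at D30, against 53.1% of all miRNAs called (35.3% higher and 17.8% lower), in D120 WT_Fe_Ov 21 were higher and 4 lower, against 65.4% (46.9% higher and 18.5% lower), and in D120 WT_Ma_Te 17 were higher and 2 lower, against 43.6% (30.8% higher and 12.8% lower). The members' medians were 3.51 in MT_Fe_Ov, 4.37 in WT_Fe_Ov and 1.71 in WT_Ma_Te. With groups at 0 set to their bound they were 3.35, 2.20 and 1.53. The medians of all miRNAs, with no bounds set, were 1.44, 2.02 and 0.78, so a large share of all miRNAs was also higher at D120. In MT_Fe_Ov the 4 lower members were the 3 of the miR-92/25 group and miR-92a-1-5p. Among the higher ones, miR-19b-3p had log2 fold changes of 4.53 in MT_Fe_Ov and 6.56 in WT_Fe_Ov (adjusted p 1.46e-05 and 1.82e-07, edgeR), and 0.67 in WT_Ma_Te (adjusted p 0.399, edgeR). In the testis miR-106ba-5p had a log2 fold change of 2.74 and miR-18c-5p of 3.05 (adjusted p 3.78e-06 and 0.00266, edgeR). The 6 immune miRNAs summed to 11874 to 16707 RPM in the D120 ovaries and 2448 to 5464 RPM in the D120 testis, against 1281 to 4034 RPM in the D30 ovaries and 1520 to 1855 RPM in the D30 testis. The 3 erythroid miRNAs summed to 48959 to 126363 RPM in the D120 ovaries and 49624 to 85793 RPM in the D120 testis, against 5025 to 27964 RPM and 18444 to 30723 RPM at D30. The 6 gut miRNAs summed to 309 to 1148 RPM in the D120 ovaries and 1291 to 22613 RPM in the D120 testis. Their median in the D120 testis was 1681 RPM. At D30 the 5 skin miRNAs summed to 105 to 131 RPM in MT_Fe_Ov and 2568 to 5004 RPM in WT_Fe_Ov. In D30 WT_Ma_Te that sum was 1014 to 1674 RPM. The part of these lists in the members' values was not tested. Whether the ovary-to-testis difference changed from D30 to D120 was tested as an interaction on all 27 libraries (edgeR). It was positive for 6 and negative for 4 members for MT_Fe_Ov over WT_Ma_Te, against 34.8% of all miRNAs called, positive for 13 and negative for 4 for WT_Fe_Ov over WT_Ma_Te, against 44.9%, and positive for 1 and negative for 2 for MT_Fe_Ov over WT_Fe_Ov, against 21.6%.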

How the data were processed

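Per the study's methods, the authors size-selected short RNA, ligated adapters, amplified by PCR, kept reads longer than 17 nt with a quality of at least 20, mapped them to ASM223467v1 with the miRDeep mapper and quantified FishmiRNA miRNAs. The deposited counts are whole reads per mature miRNA. The deposited RPM values were scaled by the authors to the miRNA total of each library, and RPM recomputed from the counts differed by at most 4.97e-05. All 27 replicate pairs differed beyond sampling noise (lowest chi-square per degree of freedom 27.0).

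Counts were tested with edgeR 4.0.16 (R 4.3.3), quasi-likelihood F test, TMM scaling and Benjamini-Hochberg adjustment over the miRNAs that reached 10 counts in 3 or more libraries of a fit. Each genotype comparison was fitted on the 9 libraries of its stage, and stage comparisons and interactions on all 27. SE is the log2 fold change divided by the square root of F. A group with all libraries at 0 was bounded at 3 counts per library, covering counting error only. Scripts were tested on simulated data. Named members averaged at least 5000 RPM in a group, were the 3 most changed calls per direction of a comparison averaging at least 100 RPM, or were at 0 in 1 library whose other replicates averaged at least 100 RPM. Members, marker lists and tests were chosen with earlier results of these data known. Alternatives were RLE scaling, library totals, DESeq2 1.42.0, no count filter beyond 1 count, an adjusted p of 0.01, a replicate block and leaving out each library. Mature sequences are not printed.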

Additional observations from a re-analysis of the deposited data

Results flagged for a closer look

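The difference between ovary and testis changed from D30 to D120 in several members, by an interaction term fitted on all 27 libraries (edgeR, log2 fold change at D120 minus that at D30). The members given here passed that test and are named for their abundance or rank. Both comparisons use the same testis libraries.

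For miR-19b-3p the interaction was 3.86 for MT_Fe_Ov over WT_Ma_Te and 5.88 for WT_Fe_Ov over WT_Ma_Te (adjusted p 0.00202 and 2.39e-05, edgeR). For miR-19a-1-3p it was 4.02 and 9.66, and for miR-19a-2-3p 11.91 and 11.63, in the same order. The last 3 of these values include D30 ovary groups at 0 counts, so they depend on the prior count and are no bound. The value of 4.02 rests on a D30 MT_Fe_Ov group near the limit of detection.

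For miR-92a-3p the interaction was -1.76 for MT_Fe_Ov over WT_Ma_Te and -2.13 for WT_Fe_Ov over WT_Ma_Te (adjusted p 0.000295 and 2.15e-05, edgeR). For miR-92b-3p it was -2.40 and -1.61 (adjusted p 3.39e-05 and 0.000989, edgeR), and for miR-92a-1-5p -1.58 and -1.55 (adjusted p 0.0239 and 0.0188, edgeR). The interaction of miR-92a-1-5p for MT_Fe_Ov was no longer called without D30 MT_Fe_Ov replicate 2, D30 WT_Ma_Te replicates 1 or 2, or D120 WT_Ma_Te replicate 1, and that for WT_Fe_Ov without D120 WT_Fe_Ov replicate 3 or D120 WT_Ma_Te replicate 1. No cause of these differences was tested.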

How the results depend on the processing

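Of the 62 tested results of named members, 47 kept their call under every alternative in which they were tested. Another 15 lost their call under at least 1, and 0 reversed. The losses fell mostly on the D30 genotype comparisons. All named results of D30 MT_Fe_Ov over WT_Ma_Te and over WT_Fe_Ov lost their call. For D30 WT_Fe_Ov over WT_Ma_Te, miR-92a-3p and miR-18a-5p lost theirs, and miR-19b-3p and miR-19a-2-3p kept theirs. At D30 miR-19a-2-3p was not tested in either ovary over WT_Ma_Te without any 1 testis library. Counts of called members moved as follows. An adjusted p of 0.01 gave 2 for D30 MT_Fe_Ov over WT_Ma_Te, 1 for D30 MT_Fe_Ov over WT_Fe_Ov, 4 for D30 WT_Fe_Ov over WT_Ma_Te, 4 for WT_Ma_Te at D30 over D10 and 1 for the interaction of MT_Fe_Ov over WT_Fe_Ov. A minimum of 1 count in total gave 4 for D30 MT_Fe_Ov and 15 for D30 WT_Fe_Ov over WT_Ma_Te, where more members at or near 0 in the ovary entered the test. DESeq2 gave 3 for D10 WT_Fe_Ov over WT_Ma_Te, 1 for D30 MT_Fe_Ov over WT_Fe_Ov and 6 for that interaction. RLE scaling gave 1 for D30 MT_Fe_Ov over WT_Fe_Ov, and library totals gave 0 there, 11 for D120 MT_Fe_Ov and 14 for D120 WT_Fe_Ov over WT_Ma_Te. Leaving out the most abundant other miRNA moved the members' share to 4.86% in D10 WT_Ma_Te, 4.49% in D120 MT_Fe_Ov and 4.13% in D120 WT_Fe_Ov. The cause of the other changes was not tested.

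Without 1 library the counts ranged from 2 to 7 for D30 MT_Fe_Ov over WT_Ma_Te, 0 to 3 for D30 MT_Fe_Ov over WT_Fe_Ov, 3 to 8 for D30 WT_Fe_Ov over WT_Ma_Te, 4 to 7 for WT_Ma_Te at D30 over D10, and 1 to 5 for the interaction of MT_Fe_Ov over WT_Fe_Ov (5 without D30 WT_Fe_Ov replicate 3 and 1 without D120 WT_Fe_Ov replicate 2, where all libraries gave 3).

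Whether replicate numbers pair the samples was not settled. Correlations of same-numbered deviations ranged from -0.245 to 0.206, and in no pair of groups were all 3 over 0.1. All 3 were positive in some pairs (0.0737 to 0.107 between D30 and D120 WT_Ma_Te). In others all 3 were negative (-0.116 to -0.0621 between D10 and D30 WT_Fe_Ov). Among the 3 libraries of another group, the best correlated bore the same number in 50 of 108 combinations. With the number as a replicate block, D30 MT_Fe_Ov over WT_Ma_Te had 4 called members, where the fit without it had 7.

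The small D30 miRNA totals, which go with a small percentage of reads mapped to miRNAs, limit what could be seen there. The D30 MT_Fe_Ov libraries differ most in miRNA total, and 14 members did not pass the count filter at D30.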

Other observations

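The miR-430 family, whose seed is that of miR-17 shifted by 1 base and which clears maternal mRNA in zebrafish embryos, was described beside the members. Its 11 rows summed to 2720 ± 1167 RPM in D30 MT_Fe_Ov, 426 ± 42.4 RPM in D30 WT_Fe_Ov and 2496 ± 285 RPM in D30 WT_Ma_Te, and to 402 ± 104 RPM in D120 MT_Fe_Ov, 470, 393 and 2287 RPM in the 3 libraries of D120 WT_Fe_Ov and 2151 ± 188 RPM in D120 WT_Ma_Te (SD, n = 3 each). WT_Fe_Ov replicate 3 thus lay in the testis range and the other two far under it. At D30, 4 of 4 rows tested were higher in MT_Fe_Ov than in WT_Fe_Ov, against 28.4% of all miRNAs called (18.8% higher). In WT_Fe_Ov 4 of 4 were lower than in WT_Ma_Te, against 46.8% called (30.4% lower). In D30 MT_Fe_Ov over WT_Ma_Te 0 of 4 were called. Rows of this family can share reads as well, so they are not separate results. The list therefore split the 2 ovaries at D30, where the miR-17, 18 and 19 groups were low in both.

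The opposite arm miR-19da-5p, singled out after its values were seen, went against its main arm in D30 WT_Fe_Ov. At D30 it had 0, 0 and 17.1 RPM in MT_Fe_Ov and 50.6, 28.6 and 58.3 RPM in WT_Fe_Ov, against 3.75, 10.2 and 9.88 RPM in WT_Ma_Te. The MT_Fe_Ov libraries thus spanned the testis range. In D30 WT_Fe_Ov the 5p arm held 92 of the 190 reads of both arms. As an unweighted mean over libraries its share was 62.6% ± 32.4, against 1.22% ± 0.637 in D30 WT_Ma_Te. That mean includes a WT_Fe_Ov library whose 3p arm was at 0. The log2 fold change of WT_Fe_Ov over WT_Ma_Te was 2.60 (SE 1.04, adjusted p 0.0649, edgeR) and did not pass, although DESeq2 called it. This arm passed the count filter only through WT_Fe_Ov, where it was high, so neither test is added support for a difference.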
